A study of Mus musculus with 6 samples.

Results

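Circadian clock genes were followed through osteogenic differentiation of C3H10T1/2 cells, a mouse line of mesenchymal cells with osteogenic, adipogenic and myogenic potential. The group was set by name and holds 10 genes of the 55401 in the count table: Arntl (also called Bmal1), Clock, Npas2, Nr1d1, Nr1d2, Dbp, Per2, Per3, Cry1 and Cry2. All 10 symbols matched an Ensembl gene, and 9 of the 10 passed the filter on low counts that left 15708 genes for testing. The exception was Npas2.

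RNA was sequenced from 3 derivatives of the line, each expressing a short hairpin RNA: shControl cells with a control hairpin, shNFIB cells with a hairpin against the 3′ untranslated region of Nfib, and shMLL1 cells with a hairpin against Kmt2a, which encodes MLL1. NFIB is a transcription factor and MLL1 a histone H3K4 methyltransferase, and the study asked how their complex shapes gene expression in differentiation. Each derivative was sampled at day 0, at confluence and without osteogenic medium, and at day 7 of culture in osteogenic medium containing 0.1 µM dexamethasone, ascorbic acid 2-phosphate at 100 µg/ml and β-glycerophosphate at 20 mM. Each of the 6 conditions has 1 library. All 3 derivatives carried a hairpin, unmodified cells are not among the samples analysed here, and whether a derivative was 1 clone or a mixed population is not given in the sources used here. Osteogenic medium was renewed every other day, and the time of day of harvest and the exact time since the last renewal are not given, so a clock gene's average level and the phase of its cycle at harvest cannot be told apart in any comparison that follows.

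The mammalian clock is a transcriptional feedback loop present in most cells. ARNTL pairs with CLOCK or its relative NPAS2, and the pair binds E-box sequences and activates the Per and Cry genes, whose products then inhibit the pair. The same pair activates Nr1d1 and Nr1d2, which encode the nuclear receptors REV-ERBα and REV-ERBβ, and these in turn repress Arntl at sites where the ROR receptors activate it. A further arm runs through D-box sequences, where DBP, TEF and HLF activate and NFIL3 represses. Cultured fibroblasts and mesenchymal cells carry this loop, cells of a dish drift out of phase unless a common signal sets them, and glucocorticoids such as dexamethasone, serum and fresh medium are known to set the phase. Per1 is a direct target of the glucocorticoid receptor.

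Promoter sequences of members are shown first. RefSeq promoters (GRCm38.p6) were found for 9 of the 10 members. Per2 had no entry. The 250 bases before each start were searched on both strands for the E-box CACGTG, the E′-box CACGTT, the D-box TTATGTAA or TTACGTAA, the nuclear receptor hexamer AGGTCA and the cAMP response element TGACGTCA. Among 32851 mouse promoters, the E-box was present in 6.02%, the E′-box in 3.85%, the D-box in 0.931%, the hexamer in 14.0% and the cAMP response element in 1.55%. The windows of 4 members that held a motif are shown here in the direction of transcription, with the motifs in capitals. Positions count back from the base before the start (-1). The Per3 window (chr4:151044666-151044915, minus strand) held a pair of D-boxes, at -205 to -198 and at -158 to -151. The Cry1 window (chr10:85185055-85185304, minus strand) held an E′-box on its other strand at -79 to -74 and an E-box at -60 to -55. An E′-box on the other strand was found at -28 to -23 of Nr1d1 (chr11:98775378-98775627, minus strand). The Nr1d2 window (chr14:18239107-18239356, minus strand) held the hexamer at -77 to -72.
Per3: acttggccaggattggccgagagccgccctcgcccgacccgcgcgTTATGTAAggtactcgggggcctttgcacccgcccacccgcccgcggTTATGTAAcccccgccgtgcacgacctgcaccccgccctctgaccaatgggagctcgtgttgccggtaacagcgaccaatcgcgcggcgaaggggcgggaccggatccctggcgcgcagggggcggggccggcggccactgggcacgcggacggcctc
Cry1: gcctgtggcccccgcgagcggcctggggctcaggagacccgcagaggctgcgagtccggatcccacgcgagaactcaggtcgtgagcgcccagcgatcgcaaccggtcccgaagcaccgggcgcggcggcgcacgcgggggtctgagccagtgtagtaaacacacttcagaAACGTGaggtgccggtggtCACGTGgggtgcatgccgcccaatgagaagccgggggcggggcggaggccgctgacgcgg
Nr1d1: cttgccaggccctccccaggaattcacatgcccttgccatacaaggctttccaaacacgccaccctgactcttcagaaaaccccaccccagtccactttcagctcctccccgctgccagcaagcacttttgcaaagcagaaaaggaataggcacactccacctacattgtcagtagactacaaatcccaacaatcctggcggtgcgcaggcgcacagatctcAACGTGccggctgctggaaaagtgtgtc
Nr1d2: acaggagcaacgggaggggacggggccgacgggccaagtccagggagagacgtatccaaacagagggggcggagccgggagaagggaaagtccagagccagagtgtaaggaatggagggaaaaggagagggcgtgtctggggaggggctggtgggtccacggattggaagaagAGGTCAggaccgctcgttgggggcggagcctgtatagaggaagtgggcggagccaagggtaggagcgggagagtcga
Cry2 also held an E′-box, at -166 to -161 on its other strand. Of the 3 Clock promoters, 1 held the hexamer, at -119 to -114 on its other strand. The RefSeq starts of Nr1d1 (98775377) and Cry2 (92434069) lie upstream of the annotated genes given below, which end at 98775333 and 92434043. Positions in these promoters count from the RefSeq start. None of the motifs was found in these windows of Arntl (2 promoters), Dbp or Npas2. A match is a description of letters and not a binding site, and no match speaks only of this window.

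The libraries held between 21608680 and 34774066 counts. The hairpin targets followed the labels: Nfib was at 116 and 83.5 CPM (counts per 1000000 counts, with library sizes scaled by TMM factors) in shControl at day 0 and day 7, against 35.3 and 8.15 CPM in shNFIB, and Kmt2a was at 74.7 and 66.3 CPM in shControl against 30.9 and 34.8 CPM in shMLL1. All 8 mesenchymal markers had at least 10 counts in every library, with a summed level of 6671 to 15821 CPM at day 0 and 6349 to 7580 CPM at day 7. Markers of other cell types were low, and their sums, carried by Cd68, by Cdh1 and by Tek with Vwf, moved with the day. Ptprc, which marks leukocytes, had at most 3 counts in any library, and Pecam1, which marks endothelium, at most 19. The 6 leukocyte markers summed to 1.52 to 2.39 CPM at day 0 and 4.36 to 8.20 CPM at day 7 (2 of 6, Cd3e among them, at 0 in every library), the 6 epithelial markers to 6.14 to 9.14 CPM and then 0.203 to 1.18 CPM (2 of 6, Epcam and Krt18, at 0 in every library), and the 5 endothelial markers to 12.0 to 27.6 CPM and then 3.51 to 6.39 CPM (0 of 5 at 0 in every library). Their part in the results was not tested.

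Within the loop, the REV-ERB gene Nr1d2 had the highest median level and Npas2 was at or near the limit of detection. Genes were compared by CPM per kb of exon. The length is that of all annotated exons of a gene merged, not of the transcripts expressed, so close ranks depend on this choice. The median level over the 6 libraries was 22.7 for Nr1d2, 9.82 for Nr1d1, 6.01 for Clock, 5.98 for Dbp, 5.56 for Per2, 4.56 for Cry2, 3.52 for Cry1, 3.48 for Per3, 1.91 for Arntl and 0.0118 for Npas2. Nr1d2 was above Nr1d1 in 5 of the 6 libraries, the exception being shNFIB at day 7 (8.77 against 9.44). The ranges of neighbours in this order overlapped, except that every library had Npas2 far below Arntl. Npas2 had 1, 3, 0, 0, 4 and 2 counts in shControl day 0 and day 7, shNFIB day 0 and day 7, and shMLL1 day 0 and day 7, at or near the floor of 3 counts (0.0939 to 0.123 CPM), so no difference in it was detectable at this depth. Clock, the other partner of Arntl, lay between 5.44 and 8.76 CPM per kb in every library. The ratio of the highest to the lowest library was 7.24 for Dbp, 4.39 for Nr1d2, 3.56 for Per3, 3.04 for Per2, 3.01 for Arntl, 2.79 for Nr1d1, 2.22 for Cry1, 2.09 for Cry2 and 1.61 for Clock.

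**Figure D1:**
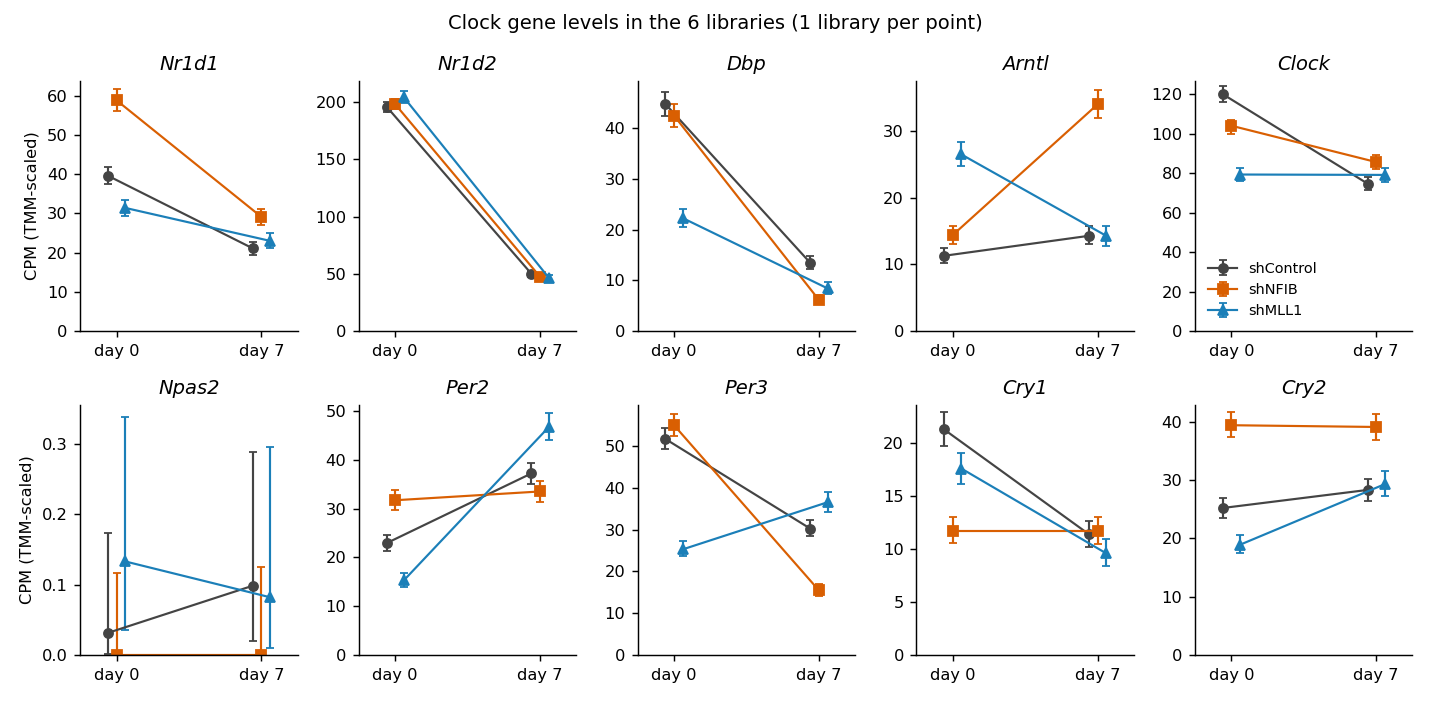
Level of each of the 10 clock genes (vertical axes, TMM-scaled CPM from 0, a scale of its own for each gene) at day 0 and day 7 in shControl (grey circles), shNFIB (orange squares) and shMLL1 (blue triangles); each point is 1 library and bars are exact 95% counting intervals. Nr1d2 was lower at day 7 in each of the 3 lines, from 196 to 204 CPM to 46.6 to 50.1 CPM. Arntl and Per3 moved one way in shMLL1 and the other way in shControl and shNFIB.

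Day 7 in osteogenic medium was compared with day 0 over the 3 lines first, since this is the only contrast with 3 libraries on each side. The test was the quasi-likelihood test of edgeR, blocked on the line, with p-values adjusted by Benjamini-Hochberg over 15708 genes. The paper reports severely inhibited osteogenic differentiation in shNFIB and shMLL1 cells. The contrast is therefore of culture in osteogenic medium, and not of equal differentiation in the 3 lines. Nr1d2, Dbp and Nr1d1 fell from day 0 to day 7. These are 3 of the 9 members tested, and 0 of 9 rose. Per2 alone had an unadjusted p under 0.05 on the higher side, and DESeq2 called the same numbers. Across all genes tested 17.3% were called lower and 17.1% higher at an adjusted p under 5% (2719 and 2679 genes, or 2093 and 3156 with library size alone, which moved the median of all genes from -0.02 to 0.11 on the log2 scale). The median log2 change of the 9 members was -0.59, against -0.02 over all genes tested. In bulk RNA, fewer cells that express a gene and less of its RNA per cell cannot be told apart. Libraries of the same line and of the same day share cells or medium, and nothing says that the cultures were separate. With line and day fitted, the spread behind the p-values is how the day change differs among these lines, with information shared over all genes. It does not measure the spread between repeat cultures of a condition.

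Nr1d2, the gene for REV-ERBβ (ENSMUSG00000021775, GRCm38 chr14:18204054-18239127, minus strand), stood at 196, 198 and 204 CPM at day 0 in shControl, shNFIB and shMLL1 and at 50.1, 47.4 and 46.6 CPM at day 7. All day 7 libraries lay far below all day 0 libraries, and the 3 lines were closer to each other on each day (199 ± 4.51 and 48.0 ± 1.82 CPM, mean ± SD, n = 3) relative to their mean than for any other member. Its log2 fold change was -2.06 (SE 0.18, adjusted p = 0.000947).

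Dbp (ENSMUSG00000059824, chr7:45705088-45710203, plus strand) encodes the D-box activator that is a standard readout of ARNTL and CLOCK activity. It was at 44.8, 42.5 and 22.3 CPM at day 0 and at 13.5, 6.19 and 8.44 CPM at day 7, in the same order of lines. The days did not overlap, but shMLL1 started at the lowest of the day 0 levels. The log2 fold change was -1.96 (SE 0.30, adjusted p = 0.00526), and the calls of Nr1d2 and Dbp held in all 10 alternatives. The exons of Dbp share 539 bp with Sphk2 on the opposite strand, and since the strand setting of the counting is not given in the sources used here, reads of the shared part cannot be assigned with certainty. Sphk2 had 416 to 996 counts and was higher at day 7 in each line.

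Nr1d1, the gene for REV-ERBα (ENSMUSG00000020889, chr11:98767932-98775333, minus strand), was at 39.6, 58.8 and 31.4 CPM at day 0 and at 21.1, 29.1 and 23.0 CPM at day 7 in shControl, shNFIB and shMLL1. The groups lay apart by a narrow gap, between 29.1 and 31.4 CPM. Its log2 fold change of -0.79 (SE 0.20, adjusted p = 0.0246) was called in this fit but not with library size alone (adjusted p = 0.0533), without the line block (0.0642), without the shControl line (0.135) or without the shNFIB line (0.0906), and it is under 2-fold. The adjusted p lay between 0.00465 and 0.135 over the alternatives. Nr1d1 shares 263 bp of exon with Thra on the opposite strand, which had 2262 to 8923 counts and was higher at day 7 in each line.

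The remaining members did not pass the test. They lie at chr1:91415982-91459324 (Per2), chr4:151003652-151044665 (Per3), chr10:85131700-85185064 (Cry1), chr2:92403646-92434043 (Cry2) and chr5:76209868-76304792 (Clock), all on the minus strand, and at chr7:113207465-113314126 (Arntl) on the plus strand. Per2, a repressor of the loop, was at 22.9, 31.7 and 15.3 CPM at day 0 and at 37.2, 33.5 and 46.7 CPM at day 7, without overlap, and its log2 fold change was 0.79 (SE 0.30, adjusted p = 0.0835). It passed with no filter on low counts (0.0262) and without the shNFIB line (1.15, adjusted p = 0.0229), but was 0.35 (adjusted p = 0.267) without the shMLL1 line. Cry1, another repressor, was at 21.3, 11.7 and 17.6 CPM and then at 11.4, 11.7 and 9.59 CPM (-0.59, SE 0.26, adjusted p = 0.118), and it passed without the shNFIB line (-0.89, 0.0464). Per3 was at 51.8, 55.1 and 25.3 CPM and then at 30.3, 15.5 and 36.6 CPM. Its days overlapped (-0.70, SE 0.43, adjusted p = 0.238), and the estimate was -1.34 (0.00949) without the shMLL1 line but -0.12 (0.812) without the shNFIB line. Cry2, at 25.2, 39.4 and 18.9 CPM and then 28.3, 39.1 and 29.3 CPM, had a log2 fold change of 0.26 (SE 0.21, adjusted p = 0.354), and 295 bp of its exons overlap D930015M05Rik on the opposite strand, which had at most 48 counts. For the activators the values were 120, 104 and 79.3 CPM and then 74.7, 85.6 and 79.1 CPM for Clock (-0.32, SE 0.20, adjusted p = 0.243), and 11.3, 14.4 and 26.5 CPM and then 14.3, 34.0 and 14.3 CPM for Arntl (0.23, SE 0.40, adjusted p = 0.672). Over the alternatives the estimate ran from -0.52 to -0.19 for Clock, from 0.04 to 0.40 for Cry2 and from -0.28 to 0.75 for Arntl, the ends of the last being the fits without shNFIB and without shMLL1. Day 0 and day 7 libraries did not overlap for 5 of the 9 members (Nr1d1, Nr1d2, Dbp, Per2 and Cry1), and for 44.9% of all genes tested. For Cry1 this rests on a difference smaller than the printed digits, since shNFIB was at 11.7 CPM on both days.

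**Figure D2:**
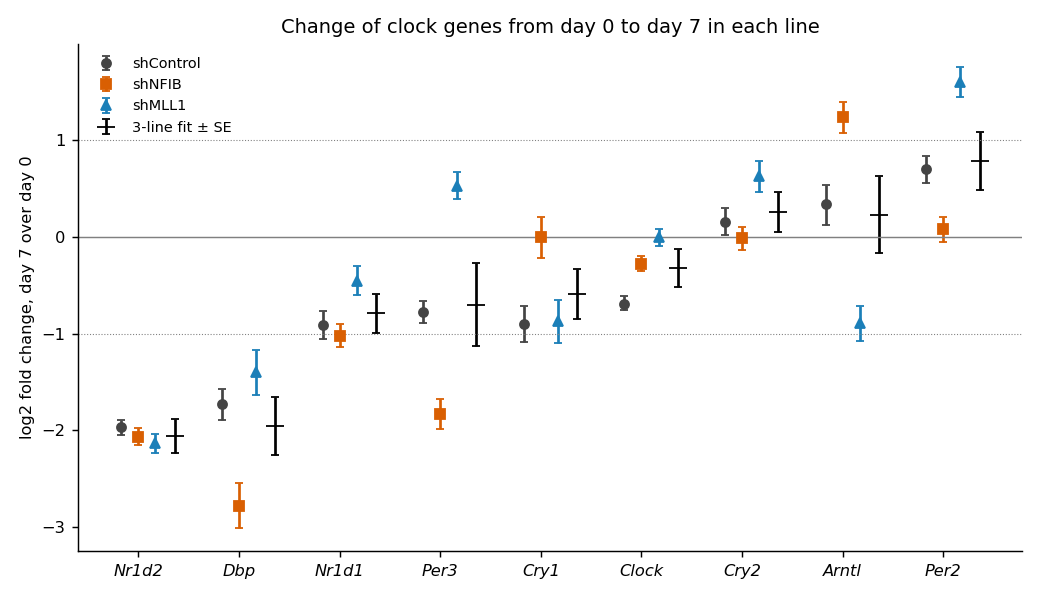
log2 fold change of 9 clock genes from day 0 to day 7 (vertical axis) within shControl, shNFIB and shMLL1 (coloured points with exact 95% counting intervals, 1 library per day) and in the fit over the 3 lines (black, ± SE); dotted lines mark a 2-fold change. Nr1d2 lies between -2.13 and -1.97 in every line, while Arntl spans -0.89 to 1.24 and Per3 spans -1.83 to 0.53.

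Single lines were compared next. Each has 1 library per day, so these comparisons have no replicate check, and the intervals are exact 95% Clopper-Pearson intervals that cover counting error only. In shControl, 2 of 9 members were past a 2-fold difference, against 34.6% of all genes tested. Both were lower at day 7: Nr1d2 by a log2 fold change of -1.97 (-2.05 to -1.89) and Dbp by -1.73 (-1.89 to -1.57). Cry1 (-0.90) and Nr1d1 (-0.91) lay just inside the threshold, Per3 was at -0.78, Clock at -0.69, Per2 at 0.70, Arntl at 0.34 and Cry2 at 0.16.

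In shNFIB, 5 of 9 members were past 2-fold, against 28.3% of all genes tested. Arntl was higher at day 7 (1.24, 1.08 to 1.40), from 14.4 to 34.0 CPM, the highest Arntl level of the 6 libraries. Lower were Dbp (-2.78, -3.01 to -2.55), Nr1d2 (-2.07, -2.15 to -1.98), Per3 (-1.83, -1.99 to -1.68) and Nr1d1 (-1.02, -1.14 to -0.90, and -0.92 with library size alone). The same library held the lowest Dbp (6.19 CPM) and the lowest Per3 (15.5 CPM). Cry1 was at 0.00, Cry2 at -0.01 and Per2 at 0.08.

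In shMLL1, 3 of 9 members were past 2-fold, against 41.8% of all genes tested. Per2 was higher at day 7 (1.61, 1.45 to 1.76), from the lowest to the highest level of the 6 libraries. Nr1d2 (-2.13, -2.23 to -2.04) and Dbp (-1.40, -1.63 to -1.17) were lower. Arntl was lower at day 7 here (-0.89, -1.08 to -0.71) and Per3 higher (0.53, 0.39 to 0.67), each opposite in sign to its difference in both other lines.

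The size of the day difference itself thus varied among lines by gene. Relative to shControl, the log2 fold change of Nr1d2 differed by -0.10 (-0.22 to 0.02) in shNFIB cells and by -0.17 (-0.29 to -0.05) in shMLL1 cells. For Arntl it was 0.90 (0.65 to 1.16) and -1.23 (-1.50 to -0.96), for Per3 -1.06 (-1.25 to -0.87) and 1.31 (1.13 to 1.49), for Dbp -1.05 (-1.33 to -0.78) and 0.33 (0.05 to 0.60), and for Per2 -0.62 (-0.80 to -0.44) and 0.91 (0.70 to 1.11). Cry1 differed in shNFIB (0.90, 0.62 to 1.18) and by 0.03 (-0.26 to 0.32) in shMLL1. Both values of each gene share the shControl libraries. With 1 library per condition these differences could not be tested against the spread between cultures.

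The knockdown lines were then compared with shControl. In edgeR's fit over both days 0 of 9 members were called for either knockdown, 0 had an unadjusted p under 0.05, and DESeq2 called 0. For shNFIB, 0.0764% of all genes were called higher and 0.178% lower (12 and 28 genes), with 1952 genes at an unadjusted p under 0.05, and 292 and 308 genes called by DESeq2. The estimates of the members ran from -0.54 for Dbp (SE 0.36, adjusted p = 0.573) to 0.89 for Arntl (SE 0.47, adjusted p = 0.494). Both rest on the day 7 library of shNFIB, without which they were 0.00 and 0.01, against -1.21 and 1.53 without the day 0 library. For shMLL1, 0.0127% were called higher and 0.0191% lower (2 and 3 genes), with 1440 at an unadjusted p under 0.05, and 169 and 232 called by DESeq2. The estimates ran from -0.83 for Dbp (SE 0.36, adjusted p = 0.558) to 0.72 for Arntl (SE 0.48, adjusted p = 0.709). Without the day 0 library of shMLL1 they were -0.44 and -0.24, and without its day 7 library -1.24 and 1.47. This fit counts a difference that depends on the day as error.

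At single days Arntl, Dbp and Per3 were the only members past 2-fold in any comparison with shControl. The share of members past it lay above that of all genes in some comparisons and below it in others. At day 0, 0 of 9 members were past 2-fold in shNFIB, against 12.4% of all genes, and the differences ran from -0.86 (Cry1) to 0.64 (Cry2). At day 7, 2 of 9 were past it in shNFIB, against 17.4% of all genes: Arntl was higher (34.0 against 14.3 CPM, log2 1.25, 1.09 to 1.42) and Dbp lower (6.19 against 13.5 CPM, -1.13, -1.39 to -0.88), with Per3 just inside (-0.97, -1.13 to -0.81). The order of the days was the other way round in shMLL1. At day 0, 3 of 9 members were past 2-fold, against 17.8% of all genes: Arntl was higher (26.5 against 11.3 CPM, 1.23, 1.05 to 1.41), and Dbp (22.3 against 44.8 CPM, -1.01, -1.14 to -0.88) and Per3 (25.3 against 51.8 CPM, -1.03, -1.16 to -0.91) were lower, though Dbp and Per3 came inside it with DESeq2's size factors (-0.93 and -0.96). At day 7, 0 of 9 were past it, against 11.7% of all genes. Arntl was then at 14.3 CPM in both lines (0.00, -0.21 to 0.21). The comparisons of a day share the shControl library of that day.

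**Figure D3:**
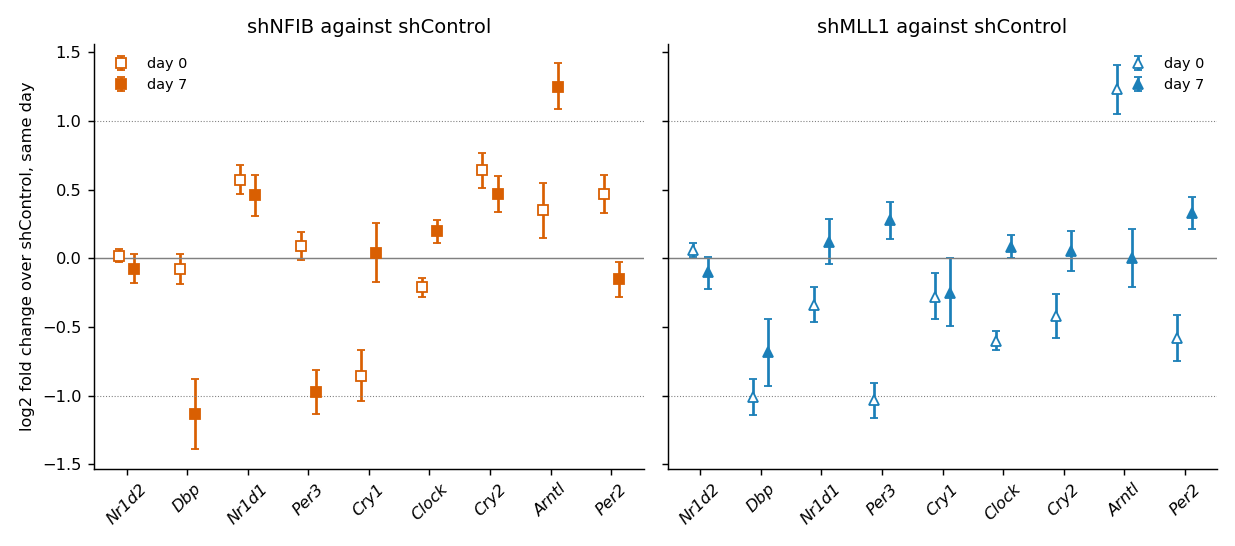
log2 fold change of 9 clock genes in shNFIB (left) and shMLL1 (right) over shControl on the same day (vertical axis; open symbols day 0, filled symbols day 7; bars are exact 95% counting intervals, 1 library each; dotted lines mark 2-fold). Arntl is high and Dbp and Per3 are low together at day 7 in shNFIB (1.25, -1.13 and -0.97) and at day 0 in shMLL1 (1.23, -1.01 and -1.03).

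Ratios of counts within a library do not depend on how libraries are scaled, and they restate this pattern. Dbp per count of Arntl was 3.96 (3.53 to 4.46) in shControl at day 0 and 0.949 (0.828 to 1.09) at day 7. In shNFIB it was 2.95 (2.65 to 3.29) at day 0 and 0.182 (0.155 to 0.213) at day 7, the lowest of the 6. In shMLL1 it was 0.841 (0.758 to 0.933) and 0.592 (0.496 to 0.705). Per3 per count of Arntl went from 4.58 to 2.12 in shControl and from 3.82 to 0.455 in shNFIB, but from 0.956 to 2.57 in shMLL1. For Nr1d1 the ratios were 3.50 and 1.48, 4.08 and 0.855, and 1.19 and 1.61 in the 3 lines, and for Per2 they were 2.02 and 2.60, 2.20 and 0.984, and 0.579 and 3.27. For Cry1 they were 1.88 and 0.798, 0.815 and 0.345, and 0.663 and 0.672. The shMLL1 day 0 library had the lowest day 0 ratio of each of these 5 genes. The shNFIB day 7 library had the lowest day 7 ratio. For Cry1 at day 0, though, the intervals of shMLL1 (0.593 to 0.741) and shNFIB (0.709 to 0.937) overlapped. All 5 ratios share the Arntl count, highest of its day in those libraries (26.5 and 34.0 CPM), so they are not separate observations. The levels of Dbp, Per2 and Per3 were themselves lowest of their day there. That of Nr1d1 at day 7 was highest in shNFIB (29.1 CPM), and that of Cry1 was not lowest in either.

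**Figure D4:**
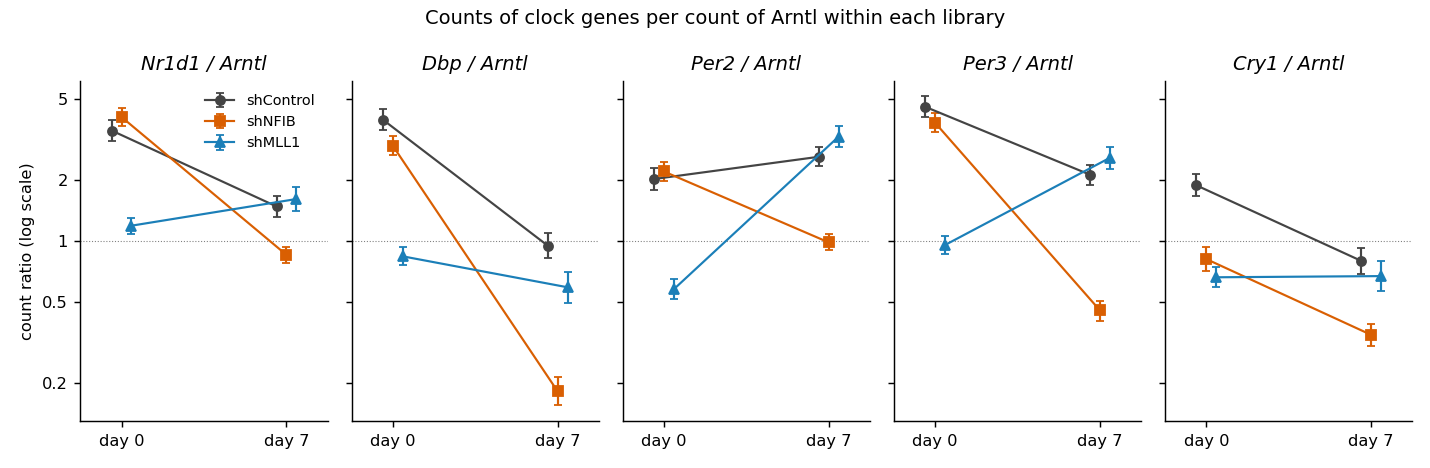
Counts of 5 clock genes divided by the counts of Arntl in the same library (vertical axis, log scale) at day 0 and day 7 in the 3 lines; bars are exact 95% counting intervals and the dotted line marks equal counts. At day 0 shMLL1 lies lowest in every panel, and at day 7 shNFIB does, with Dbp at 0.182 of the Arntl count. All panels share the Arntl count, so they are not separate observations.

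Ratios between paralogues were mixed, and those among the Period genes and between the REV-ERB genes separated the days. Per3 per count of Per2 was 2.26, 1.74 and 1.65 at day 0 and 0.815, 0.462 and 0.785 at day 7 in shControl, shNFIB and shMLL1. Per1, the third Period gene and not one of the 10, was at 0.978, 0.802 and 1.11 counts per count of Per2 at day 0 and at 2.23, 2.24 and 2.12 at day 7. Both Period ratios separated the day 0 from the day 7 libraries without overlap, but they share the Per2 count. Of all single genes tested, 44.9% did not overlap between the days, and the share among ratios of genes was not computed. Nr1d2 per count of Nr1d1 was 4.94, 3.37 and 6.51 at day 0 and 2.37, 1.63 and 2.02 at day 7. Cry2 per count of Cry1 was 1.19, 3.36 and 1.08 at day 0 and 2.48, 3.33 and 3.06 at day 7, so the days overlapped and the shNFIB library of day 0 stood with the day 7 libraries. Arntl2 per count of Arntl overlapped too, at 0.668, 2.04 and 0.325 at day 0 and 0.494, 0.547 and 0.480 at day 7. These are ratios of counts and not per length, so they compare libraries and not genes.

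Across the 6 libraries, the log2 levels of Arntl and Per3 had a Pearson r of -0.89. The r was -0.55 for Arntl and Dbp and -0.16 for Arntl and Nr1d1, and it was 0.91 for Nr1d2 and Dbp, 0.79 for Dbp and Per3 and 0.79 for Nr1d1 and Nr1d2. Per2 ran opposite to Cry1 (-0.86) and to Nr1d2 (-0.78). These 6 points share cells within a line and medium within a day, and the values are descriptions. Among 9534 protein-coding genes with a mean of at least 10 CPM, those with the pattern most like Arntl were Yae1d1 (r = 0.985), Zfand2a (0.982) and Parp11 (0.980), and 9 genes were above 0.95. The genes most like Dbp were Pcyt1b (0.992), Fzr1 (0.992) and L1cam (0.989), with 109 above 0.95. For Nr1d1 they were Slc4a8, Wrnip1 and Col12a1 (0.997, 0.996 and 0.994, 274 above 0.95), for Per2 Tom1l2, Kat6b and Tns2 (0.998, 0.994 and 0.992, 93 above), and for Cry1 Bap1, Nol10 and Kti12 (0.990, 0.981 and 0.976, 10 above). None of these 15 is a gene of the clock lists.

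The other genes of the clock were taken from a list of 17, of which 15 passed the filter. From day 0 to day 7, 2 rose and 5 fell, with a median log2 change of -0.21, against 17.1% higher and 17.3% lower over all genes tested, and 0 were called for either knockdown by edgeR. Arntl2, Rora and Timeless had an unadjusted p under 0.05 for shNFIB and 0 for shMLL1, and DESeq2 called 2 higher in shNFIB and 0 in shMLL1. Without the shControl line, 1 was called higher and 1 lower, and without the line block 2 and 3. Among the repressors, Per1 rose (log2 2.00, SE 0.24, adjusted p = 0.00222), from 22.4, 25.4 and 17.0 CPM to 83.1, 75.0 and 98.9 CPM, opposite to Per3 in shControl and shNFIB. Timeless, which acts at replication forks and has a debated clock role in mammals, fell (-2.20, SE 0.21, adjusted p = 0.00110), from 47.8, 33.3 and 40.0 CPM to 11.8, 5.82 and 9.55 CPM. Ciart, the CHRONO repressor of the ARNTL and CLOCK pair, fell (-1.76, SE 0.40, adjusted p = 0.0179), from 9.36, 7.35 and 18.7 CPM to 2.30, 4.47 and 3.20 CPM. Bhlhe40, the E-box repressor DEC1, fell (-1.33, SE 0.33, adjusted p = 0.0225), from 52.4, 78.4 and 101 CPM to 25.9, 48.4 and 20.4 CPM. The calls of Ciart and Bhlhe40 were lost without the shControl line (adjusted p = 0.0885 and 0.0633). Bhlhe41, the gene for DEC2, had a log2 change of -0.33 (adjusted p = 0.300).

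Among the activators, the ROR receptor gene Rora was at 19.8, 41.2 and 13.9 CPM at day 0 and 13.1, 37.9 and 16.0 CPM at day 7 (day change -0.17, adjusted p = 0.571, and shNFIB against shControl 1.28, SE 0.28, adjusted p = 0.158). Rorb was filtered, with at most 7 counts. Arntl2, a paralogue of Arntl, was at 7.54, 29.5 and 8.62 CPM at day 0 and 7.05, 18.6 and 6.84 CPM at day 7, highest in shNFIB on both days (log2 1.68, SE 0.28, adjusted p = 0.0953).

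Among the D-box factors, Tef was at 243, 207 and 127 CPM at day 0 and 173, 97.7 and 248 CPM at day 7, lower at day 7 in shControl and shNFIB and higher in shMLL1 like Per3 (-0.21, SE 0.39, adjusted p = 0.692, -0.82, adjusted p = 0.0324, without the shMLL1 line, and 0.24 without the shNFIB line). Nfil3, the D-box repressor, was at 25.9, 15.5 and 39.0 CPM and then at 34.5, 54.9 and 37.9 CPM, and so, like Arntl, was higher at day 7 in shControl and shNFIB but not in shMLL1 (0.72, SE 0.36, adjusted p = 0.159, 1.08, adjusted p = 0.0497, without the shMLL1 line, and 0.19, adjusted p = 0.631, without the shNFIB line). Hlf was filtered, with at most 10 counts. Among the enzymes that set the stability of PER and CRY proteins, Csnk1e (0.77, adjusted p = 0.0196) rose and Gsk3b (-0.88, adjusted p = 0.0228) and Fbxw11 (-0.78, adjusted p = 0.0219) fell. Csnk1d, Btrc and Fbxl21 had log2 changes of 0.00, 0.10 and 0.22 (adjusted p = 0.701 to 0.995). None of the 3 calls held without the shControl line (adjusted p from 0.169 to 0.176), and those of Gsk3b and Fbxw11 were also lost without the line block (0.103 and 0.0602).

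**Figure D5:**
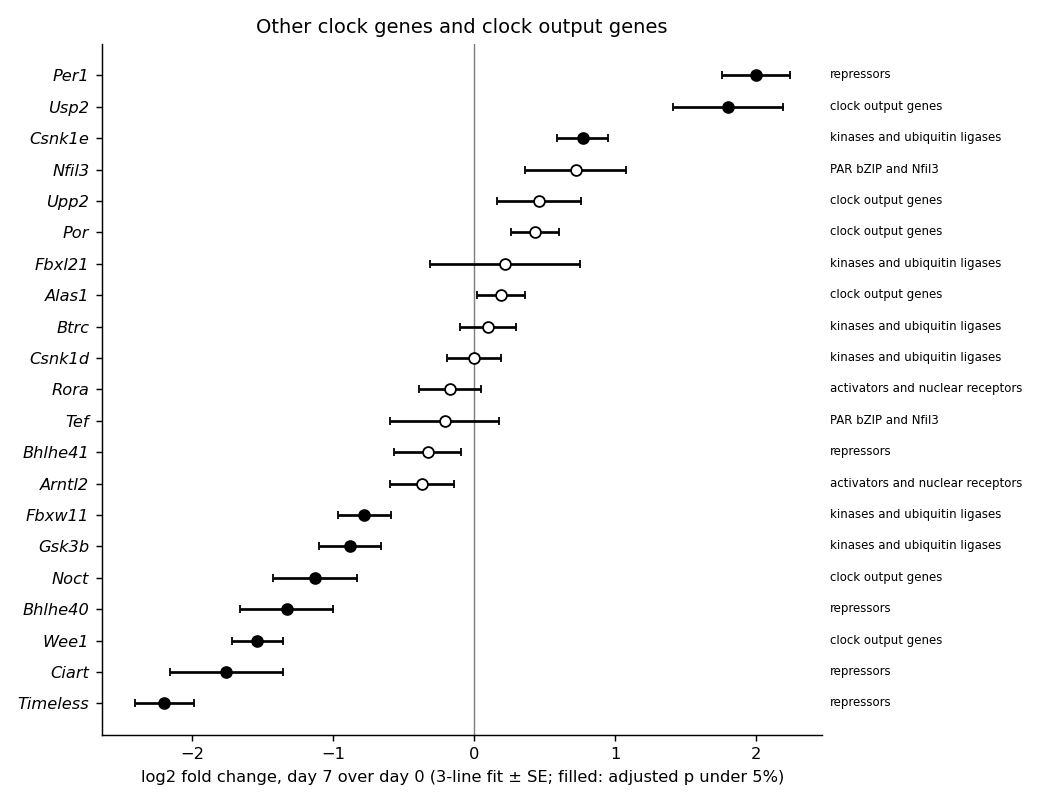
log2 fold change from day 0 to day 7 (horizontal axis, fit over the 3 lines ± SE) of the 15 other clock genes and 6 clock output genes that passed the filter; filled circles have an adjusted p under 5%. Per1 lies at 2.00, and Timeless, Ciart and Bhlhe40 at -2.20, -1.76 and -1.33.

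Dexamethasone was present at day 7 and absent at day 0, so the day contrast is also a contrast of glucocorticoid exposure, and differentiation, time and hormone cannot be told apart in it. Of 8 glucocorticoid response genes, 7 rose and 0 fell, against 17.1% and 17.3% of all genes tested. The list was chosen with earlier results of these data known, so this count is a description. Per1 is counted among the other clock genes too, and Zbtb16 passed the count filter only through its day 7 libraries. Fkbp5, a classical target of the receptor, went from 25.4, 29.5 and 18.8 CPM to 273, 422 and 414 CPM (log2 3.91, SE 0.28, adjusted p = 0.000638). Sgk1 (3.48), Errfi1 (3.70), Tsc22d3 (3.19), Klf9 (2.20) and Per1 (2.00) rose as well, as did Zbtb16, which had 0 counts in every day 0 library and 1296, 133 and 154 counts at day 7. Dusp1 had a log2 change of 0.11 (adjusted p = 0.726). The 7 calls held in all 9 other fits.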

How the data were processed

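RNA was sequenced from 6 libraries of C3H10T1/2 cells, 1 for each combination of hairpin and day. Per the methods of the study and the submitters' processing notes, the authors used Trimmomatic 0.39 on paired 100 bp reads, HISAT2 2.2.1 for alignment to GRCm38 and SAMtools 1.12 to keep mapping qualities over 30, discarded PCR duplicates, and obtained a count for every Ensembl gene from HTSeq 0.11.1. The deposited values are these raw counts per gene, without normalization. The annotation release and the strand setting are not given in the sources used here. The ChIP-seq of the study was not analysed here.

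Groups were taken from the sample titles. Gene names, positions and exon lengths came from GENCODE M21 on GRCm38 and promoters from RefSeq. Counts were fitted with edgeR 4.0.16 (R 4.3.3), scaling all 6 libraries by TMM (0.9081 to 1.129), filterByExpr with the day as group (minimum count of 10), terms for line and day, the quasi-likelihood F test and Benjamini-Hochberg adjustment over 15708 genes, called at 5%. The line pairs the days, because the day 0 and day 7 cultures derive from 1 hairpin cell line each. Deviations from the day means had correlations of 0.434, 0.429 and 0.272 in shControl, shNFIB and shMLL1, and the line was therefore a block. The common biological coefficient of variation was 0.277. A standard error is the log2 fold change divided by the square root of F.

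Pairs of single libraries were described by the TMM-scaled fold change, its exact 95% Clopper-Pearson interval and the study's threshold of 2-fold, with no p-value. Differences between lines in the day change were given 95% intervals by a normal approximation on log counts. Correlations used log2 CPM with a prior count of 2. Python 3.11.15, scipy 1.17.1 and matplotlib 3.10.9 were used, and the fit was tested on simulated data. Each condition has 1 library, so intervals and floors cover counting error only and not the spread between cultures.

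The members and the gene lists were chosen with earlier results of these data known. The genes named are the 10 members, the genes of the clock, clock output and glucocorticoid lists, the hairpin targets, genes overlapping a member, and the 3 genes most correlated with each of 5 members. Some genes of the lists are not reported here. The alternatives were DESeq2's size factors or library size alone, DESeq2 1.42.0, no filter, protein-coding genes alone, an added fold change over 2, no block, each line or library left out, only the 4 libraries compared, and counts thinned to the smallest library.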

Additional observations from a re-analysis of the deposited data

Results flagged for a closer look

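Arntl and Per3 each had a day 7 to day 0 difference that pointed one way in shMLL1 and the other way in both other lines. With 1 library per condition the difference between lines was not tested. For Arntl the log2 fold change in shMLL1 minus that in shControl was -1.23, with an approximate 95% counting interval of -1.50 to -0.96. Minus that in shNFIB it was -2.13 (-2.37 to -1.89). For Per3 the shMLL1 value lay above that of shControl by 1.31 (1.13 to 1.49) and above that of shNFIB by 2.37 (2.16 to 2.57). The differences of each gene share the shMLL1 libraries.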

How the results depend on the processing

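Nr1d2 and Dbp kept their day call in all 10 alternatives (adjusted p from 1.27e-20 to 0.00643 and from 4.79e-08 to 0.0155), and Nr1d1 lost it in 5, as given beside its values. The number of members called higher at day 7 was 0, but 1 with no filter on low counts and 0 to 1 when a line was left out (Per2 without shNFIB). The number of members past 2-fold in shMLL1 against shControl at day 0 was 3, but 1 with DESeq2's size factors. Per3 in shNFIB against shControl at day 7 moved past 2-fold with DESeq2's size factors (-1.01) and with library size alone (-1.08). No called value turned its sign. Members called for a knockdown stayed at 0 in every alternative. Over all genes, 5398 were called for the day, 3881 without the block and 2043 without the shControl line. For shNFIB 40 were called, 600 with DESeq2's test, 688 with no filter, 533 with only the 4 libraries compared, and 16 to 764 when a library was left out. For shMLL1 the count was 5, then 401, 526, 183 and 1 to 361. The causes of these differences were not tested. With 1 library per condition and 2 residual degrees of freedom, differences in response between lines had no test.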

Other observations

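Of 6 genes known as outputs of the clock in other tissues, 1 rose and 2 fell from day 0 to day 7 (against 17.1% and 17.3% of all genes tested), and 0 were called for either knockdown by edgeR (3 had an unadjusted p under 0.05 for shNFIB and 0 for shMLL1, and DESeq2 called 1 for shNFIB). Usp2, a deubiquitinase, rose (log2 1.80, SE 0.39, adjusted p = 0.0152), with 3.91, 1.68 and 3.31 CPM at day 0 and 11.5, 3.42 and 22.8 CPM at day 7 in shControl, shNFIB and shMLL1. Wee1, a kinase that restrains entry into mitosis, fell (-1.54, SE 0.18, adjusted p = 0.00216), from 43.7, 81.1 and 38.3 CPM to 13.8, 27.5 and 14.5 CPM. Noct, a circadian phosphatase of NADP(H), fell (-1.13, SE 0.30, adjusted p = 0.0279), from 6.82, 9.85 and 13.4 CPM to 3.54, 5.82 and 4.14 CPM. Without the shControl line, 0 were called higher and 1 lower, the call of Usp2 being lost with an adjusted p of 0.0565 and that of Noct with 0.103. Noct was also lost without the shMLL1 line (0.0537), and Usp2 without the block (0.0514). Por, Upp2 and Alas1, enzymes of metabolism, had log2 changes of 0.43, 0.46 and 0.19 (adjusted p = 0.0941 to 0.429).

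Usp2, like Per2 and Per1, had its highest level of the 6 libraries in shMLL1 at day 7. The levels of these 3 genes there were 22.8, 46.7 and 98.9 CPM.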
